A study of Mus musculus with 27 samples.

Results

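The transcripts described here are those of 10 genes that restrain mitogen-activated protein kinase (MAPK) signaling in mouse splenic B cells. They comprise 7 dual-specificity phosphatases (Dusp1, Dusp2, Dusp4, Dusp5, Dusp6, Dusp10 and Dusp16), 2 Sprouty genes (Spry1 and Spry2) and Spred1. They were chosen by name, as known feedback inhibitors of this pathway, from the 54532 genes in the count tables of the study, and all 10 had enough counts to be tested in every comparison. B cells from the spleens of wild-type C57BL6 mice were cultured for 3 h and sequenced as bulk polyadenylated RNA. The study states the age of its transplant recipients, but not of the mice that gave these B cells. In the first experiment the 5 groups of 4 libraries were unstimulated cells (NS), cells given lipopolysaccharide (LPS), which acts through Toll-like receptor signaling as a T-independent stimulus, or interleukin-4 with an agonistic CD40 antibody (IL4CD40), which stands for T cell help, and each stimulus with 1 µM disulfiram (LPS_DSF and IL4CD40_DSF). Disulfiram (DSF) is a drug for alcohol dependence that inhibits aldehyde dehydrogenase. Cells without an inhibitor received the solvent DMSO. The study's figure legends call the cells with an inhibitor pre-treated, so the inhibitor was given before the stimulus. In the second experiment each condition was 1 library, and 1 µM ibrutinib, an inhibitor of the kinase BTK, was tested beside DSF. The cells had been purified by removal of other splenocytes, so that no stain selected them positively.

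MAPKs are switched on when both a threonine and a tyrosine in their activation loop are phosphorylated, and dual-specificity phosphatases remove both phosphates. DUSP5 and DUSP6 act mainly on ERK, in the nucleus and in the cytoplasm respectively, DUSP2 and DUSP4 act in the nucleus on ERK and other MAPKs, DUSP1 acts on p38, JNK and ERK, and DUSP10 and DUSP16 act mainly on p38 and JNK. Sprouty and Spred proteins restrain the pathway further upstream, at the level of Ras and Raf. Several of these genes are themselves transcribed in answer to MAPK activity, which makes them a classical negative feedback loop.

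In the annotation of the count tables, which uses the mm10 build, Dusp1 lies on chromosome 17 (26505590 to 26508519, minus strand), Dusp2 on chromosome 2 (127336159 to 127338376, plus strand), Dusp4 on chromosome 8 (34807297 to 34819894, plus strand), Dusp5 on chromosome 19 (53529109 to 53542431, plus strand) and Dusp6 on chromosome 10 (99263231 to 99267489, plus strand). Dusp10 lies on chromosome 1 (184013302 to 184075636, plus strand), Dusp16 on chromosome 6 (134715468 to 134792625, minus strand), Spry1 on chromosome 3 (37639947 to 37644598, plus strand), Spry2 on chromosome 14 (105891947 to 105896819, minus strand) and Spred1 on chromosome 2 (117121374 to 117182279, plus strand). Reads from Dusp10, Dusp16 and Spry1 cannot be told apart with certainty from those of 1700056E22Rik, Gm36328 and Gm42922, which overlap them, because the labels leave the strandedness of the libraries unstated. The overlapping genes held few reads, at most 34, 8 and 3 counts in any of the 20 libraries of the first experiment, against lowest counts of 127, 657 and 6 for the members they overlap.

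Promoter sequence was examined because several of the phosphatase genes moved together with DSF, as described below. Of the 10 genes, 9 were matched by symbol in a RefSeq promoter table of build GRCm38.p6, and the first entry of each was taken. The 250 bases before the start in that entry were searched on both strands for the binding motifs of several factors. These starts can differ from the gene spans given above. The Dusp10 window (184034131 to 184034380) lies inside its gene span, and the Dusp1 and Dusp5 windows reach into theirs. The cAMP response element was searched as TGACGTCA, and its shorter form, which the full element holds on each strand, as TGACG. The AP-1 site was spelled TGANTCA with any base at N. The ETS factor site was spelled CCGGAA in this search. The TATA box was taken to be TATAAA wherever it stood. The Sp1 site was taken to be GGGCGG on either strand. The full cAMP response element was found before Dusp1 and before no other of the 9 genes, and 1.55% of 32851 promoters of the same length hold it. The short form was found before 3 of the 9 genes, Dusp1, Dusp5 and Dusp16, against 17.8% of all promoters. The Sp1 site was found before 7 of the 9 (32.7% of all promoters), and the AP-1 site, the ETS site and the TATA box before none of them (6.75%, 12% and 12.4% of all promoters). The windows of the 3 genes with the short form are shown, with that of Dusp6, whose transcript rose with DSF under each stimulus, for comparison; they read 5′ to 3′ on the gene's strand, and capitals mark the short form on either strand, including the full element.

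Dusp1, chr17:26508473-26508722, minus strand: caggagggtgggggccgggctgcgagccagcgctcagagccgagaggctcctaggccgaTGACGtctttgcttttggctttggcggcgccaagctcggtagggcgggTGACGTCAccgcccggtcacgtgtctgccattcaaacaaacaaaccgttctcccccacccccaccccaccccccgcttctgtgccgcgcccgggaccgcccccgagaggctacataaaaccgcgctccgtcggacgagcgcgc
Dusp5, chr19:53528895-53529144, plus strand: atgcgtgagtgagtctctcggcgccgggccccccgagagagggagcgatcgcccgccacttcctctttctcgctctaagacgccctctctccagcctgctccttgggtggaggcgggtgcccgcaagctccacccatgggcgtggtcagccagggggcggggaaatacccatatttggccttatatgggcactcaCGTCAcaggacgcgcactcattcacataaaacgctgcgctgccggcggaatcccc
Dusp16, chr6:134792629-134792878, minus strand: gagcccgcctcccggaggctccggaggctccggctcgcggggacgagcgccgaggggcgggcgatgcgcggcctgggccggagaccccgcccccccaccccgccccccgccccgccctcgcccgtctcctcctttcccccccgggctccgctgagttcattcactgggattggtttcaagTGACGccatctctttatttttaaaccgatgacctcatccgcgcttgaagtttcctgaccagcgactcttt
Dusp6, chr10:99262981-99263230, plus strand: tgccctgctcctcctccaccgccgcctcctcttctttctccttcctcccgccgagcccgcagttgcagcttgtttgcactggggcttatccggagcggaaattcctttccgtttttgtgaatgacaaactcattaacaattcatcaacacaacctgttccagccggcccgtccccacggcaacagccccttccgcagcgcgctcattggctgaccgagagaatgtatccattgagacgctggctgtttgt

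The Dusp1 window holds the full element starting 143 bases before the RefSeq transcription start, and the Dusp5 and Dusp16 windows hold the short form starting 55 and 70 bases before theirs. Such matches describe the letters only. In the transcripts themselves, the pentamer ATTTA, the core of AU-rich elements that are known to shorten the life of messages, was counted in the 3′ untranslated part of the GENCODE vM21 transcript with the longest coding part. Dusp1 and Dusp2 held 4 copies each in 690 and 581 bases, or 5.8 and 6.88 per kilobase, a density above that of 95.6% and 97.3% of 17296 genes. Dusp5 and Dusp6 held 1 copy each, 0.902 and 0.841 per kilobase, below the median of 1.49 per kilobase over all these genes, and 7 of the 10 genes lay above that median.

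The 20 libraries of the first experiment held 17804851 to 23632992 counts and the 7 of the second 16049295 to 24619776. No library was a copy of another: a chi-square per gene between replicates was at least 2.86 where sampling alone gives about 1. Of the marker lists, all 8 B cell genes were detected, with summed FPKM of 1290 to 3640, T cell genes summed to 9.55 to 15.9, NK cell genes to 0.904 to 3.64 and erythroid genes to 1.48 to 17.7. Myeloid genes summed to 400 to 483 in NS and 131 to 245 in the stimulated groups, with Lyz2 alone at a mean of 335 FPKM in NS, and neutrophil genes to 24.5 to 66.8 in NS and 17.1 to 28 elsewhere. None of these lists had a gene at 0 in every library. The part of other cell types in the results was not tested, and in bulk RNA fewer cells of a type and less RNA per cell cannot be told apart. The labels do not say whether libraries of a group came from separate mice or cultures. The study's figure legend calls the samples behind its FPKM values biologically independent, without saying whether they were mice or cultures. The p-values below therefore measure the spread between these libraries, which may be partly technical.

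Some libraries stood apart, and they touch these genes directly. The NS libraries fell into 2 pairs: the correlation of log2 CPM, the counts scaled for library size, was 0.993 between replicates 1 and 2, 0.992 between replicates 3 and 4, and 0.963 to 0.964 across the pairs, and 14.4% of the genes with a mean count of 50 or more spanned 2-fold or more within NS, against 0.593% within LPS. Dusp5, the nuclear ERK phosphatase, was at 58.2 and 62.2 FPKM in NS replicates 1 and 2 and at 6.33 and 5.44 in replicates 3 and 4. Dusp6, the cytoplasmic ERK phosphatase, went the other way, at 5.51 and 6.67 FPKM in replicates 1 and 2 and at 34.5 and 32.4 in replicates 3 and 4. Dusp5 was thus 10.2-fold higher in the pair in which Dusp6 was lower, and Dusp6 was 5.49-fold higher in the other pair. Dusp4, whose product acts in the nucleus, followed Dusp5 (28.03 and 29.6 against 7.01 and 6.45 FPKM), as did Spred1 (3.41 and 3.13 against 1.52 and 1.51 FPKM). Spry1 and Spry2 were also higher in replicates 1 and 2, by 2.57-fold and 1.81-fold, Dusp10 was 1.58-fold higher in replicates 3 and 4, and the means of Dusp1, Dusp2 and Dusp16 in the 2 pairs were within 1.26-fold of each other. The unstimulated library of the second experiment had Dusp5 at 80.1 and Dusp4 at 48.4 FPKM, above each pair and nearer to replicates 1 and 2. It had Dusp6 at 10.04 and Spred1 at 2.12 FPKM, between the pairs. Spry2 (1.25 FPKM) and Spry1 (0.379 FPKM) were nearer to replicates 3 and 4, and Dusp10 (2.81 FPKM) was below each pair. Neutrophil genes summed to 66.8 and 64.2 FPKM in NS replicates 1 and 2 and to 24.5 and 29.9 in replicates 3 and 4, and erythroid genes to 3.73 and 2.97 against 15.6 and 17.7; their part in the split was not tested.

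**Figure D1:**
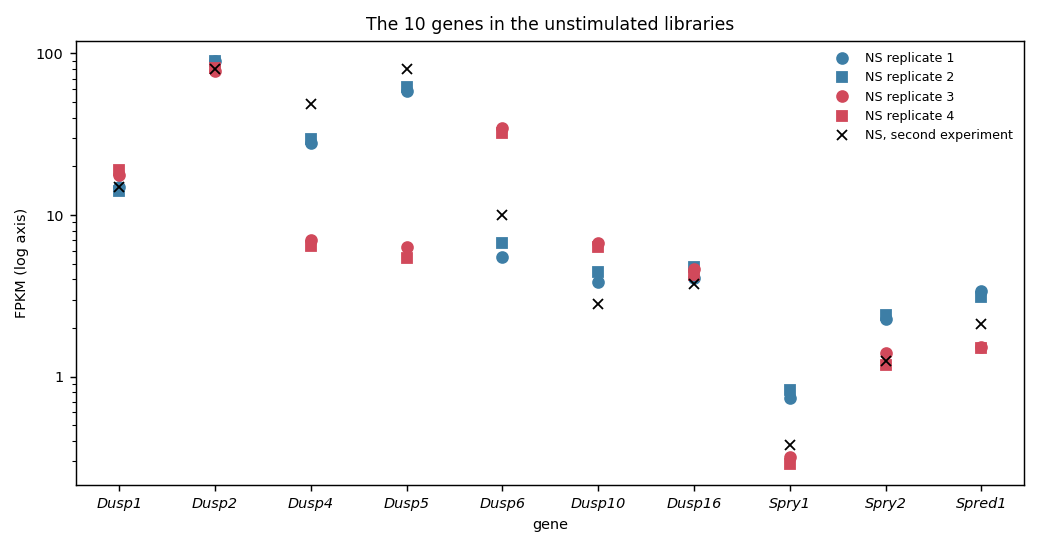
FPKM of the 10 genes on a log axis in the 4 unstimulated libraries of the first experiment and the 1 of the second. Dusp4, Dusp5 and Spred1 are higher and Dusp6 is lower in replicates 1 and 2 than in replicates 3 and 4, with Dusp5 10.2-fold apart, while Dusp2 and Dusp16 lie together.

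In IL4CD40, replicates 3 and 4 lay closer to the DSF-treated libraries than replicates 1 and 2 did: their correlation with IL4CD40_DSF libraries was 0.966 to 0.974, against 0.950 to 0.957. Among the 10 genes this showed in Dusp1, at 3.14 and 3.76 FPKM in replicates 1 and 2 and 5.67 and 7.95 in replicates 3 and 4, and in Dusp6, at 1.21 and 1.23 against 1.53 and 1.79. Values without these libraries are therefore given beside the results of the members that they move most. Those settings were chosen after seeing the data, and what set the libraries apart was not tested.

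The 7 phosphatase genes differed widely in level. On the FPKM scale, which corrects for transcript length, Dusp2 and Dusp5 were the most abundant of the 7 in each stimulated group. Dusp2 took a median of 38.2% to 47.0% of the summed FPKM of the 7 genes in the 5 groups, and Dusp5 28.3% to 37.3% in the 4 stimulated groups. In NS, Dusp5 ranged from 3.51% to 29.4% and Dusp6 from 2.70% to 22.4%. With either stimulus Dusp6 shrank to a median of 0.363% (LPS) and 0.615% (IL4CD40), and it stood at 1.05% and 1.60% with DSF. The summed FPKM of the 7 genes was 154 to 212 in NS, 299 to 330 in LPS, 413 to 436 in LPS_DSF, 221 to 235 in IL4CD40 and 255 to 280 in IL4CD40_DSF, so no stimulated group overlapped another. Spry1, at 6 to 62 counts per library, was close to the detection limit throughout.

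**Figure D2:**
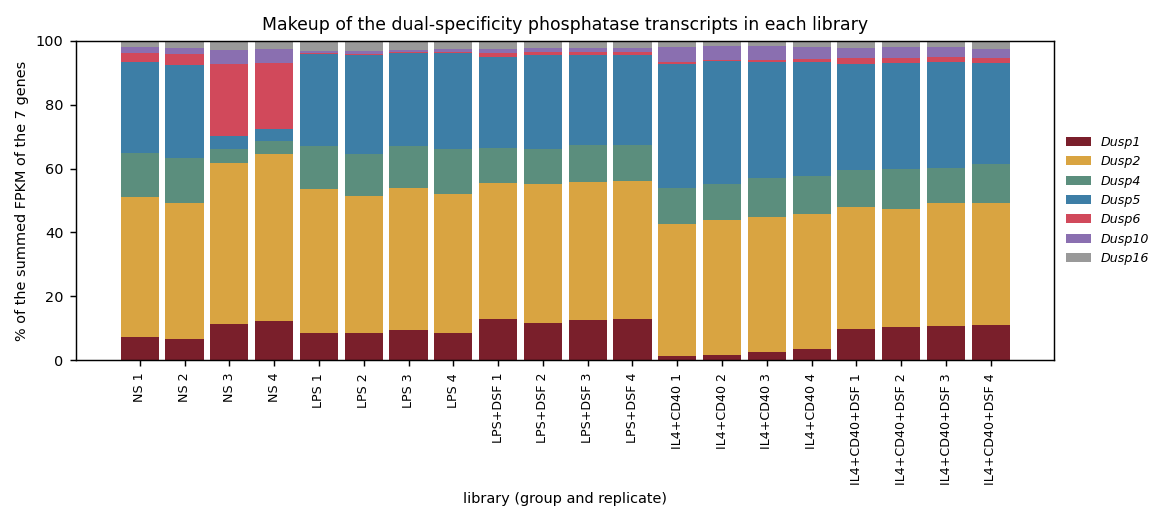
Each bar is 1 library of the first experiment, split by the share of the summed FPKM of the 7 phosphatase genes, in percent. Dusp2 takes the widest band in each library, Dusp6 is a broad band in NS replicates 3 and 4 and a thin one in all stimulated libraries, and the Dusp1 band is thin in IL4CD40 (1.39% to 3.53%) and wider with DSF (9.77% to 11%).

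The comparison of LPS with NS asks how the stimulus alone moved these genes. By edgeR's quasi-likelihood test with Benjamini-Hochberg adjustment over all genes, 4 of the 10 rose and 3 fell, where 29.6% of all genes tested rose and 33.3% fell, so that the share of members called was near that of all genes. The members' median log2 difference was 0.66, that of all genes -0.05. The ERK phosphatase Dusp6 fell the furthest. It was at 1.04, 0.905, 1.22 and 1.57 FPKM in LPS, against 5.51, 6.67, 34.5 and 32.4 in NS. Every LPS library was below every NS library, and the log2 difference was -4.07 ± 0.69 (SE; adjusted p = 0.000885). Against NS replicates 3 and 4 alone the fall was 28.1-fold and against replicates 1 and 2 alone it was 5.11-fold.

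Dusp16, which acts on JNK and p38, rose with LPS and was untouched by the split in NS. Its FPKM was 9.05, 9.43, 9.26 and 9.03 in LPS and 4.10, 4.74, 4.63 and 4.24 in NS. The groups were far apart, at a log2 difference of 1.07 ± 0.06 (adjusted p = 2.12e-06) that was 1.08 against NS replicates 3 and 4 and 1.09 against replicates 1 and 2. Dusp1 rose from 14.96, 14.1, 17.6 and 18.9 FPKM to 25.9, 25.4, 30.8 and 28.5 (log2 difference 0.77 ± 0.12, adjusted p = 0.000456; 0.63 against NS replicates 3 and 4 and 0.95 against replicates 1 and 2), and Dusp2 rose by a log2 difference of 0.71 ± 0.07 (adjusted p = 3.81e-05; 0.82 and 0.64 against the same pairs). Dusp10, the other phosphatase for p38 and JNK, fell from 3.88, 4.43, 6.75 and 6.38 FPKM to 2.15, 2.65, 2.15 and 2.47. Its groups did not overlap either, with a log2 difference of -1.17 ± 0.20 (adjusted p = 0.000931; -1.45 against NS replicates 3 and 4 and -0.79 against replicates 1 and 2), and Spry2, a Sprouty inhibitor of receptor signaling to Ras, fell by 1.12 ± 0.27 on the log2 scale (adjusted p = 0.00573; -0.62 and -1.47 against the same pairs).

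The calls on Dusp4, Dusp5 and Spred1 turned on which NS libraries were used. Dusp4 was at 40.5, 40.2, 42.3 and 47.0 FPKM in LPS, above every NS library, yet its adjusted p of 0.0429 (log2 difference 1.28 ± 0.48) rose to 0.0696 without NS replicate 3, 0.0665 without NS replicate 4, 0.073 to 0.0869 without any 1 of the LPS libraries, and 0.0943 under scaling by total counts. Dusp5 was at 86.2, 93.1, 93.1 and 98.3 FPKM in LPS, again above every NS library, but its difference of 1.52 ± 0.74 did not pass the test (adjusted p = 0.101). Within the pairs, Dusp5 was higher with LPS by 16.03-fold against NS replicates 3 and 4 and by 1.57-fold against replicates 1 and 2, and Dusp4 by 6.43-fold and 1.502-fold, each with an adjusted p of at most 3.15e-09. Spred1 was not called (0.60 ± 0.26, adjusted p = 0.0727), was called higher without NS replicate 1 (0.83, adjusted p = 0.0182), without NS replicate 2 (0.77, adjusted p = 0.039) and without both (1.27, adjusted p = 7.18e-11), and was at 0.16 without replicates 3 and 4 (adjusted p = 0.086). Spry1, at -0.41 ± 0.39 (adjusted p = 0.375), was at 0.43 without NS replicates 1 and 2 (adjusted p = 0.27) and was called lower without replicates 3 and 4 (-0.92, adjusted p = 0.00443).

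IL4CD40 gave a different mix. Relative to NS, 2 of the 10 genes rose and 3 fell (background 30.4% and 32.1% of all genes), with a median log2 difference of 0.01 against -0.04 over all genes. Dusp6 fell here too, to 1.21, 1.23, 1.53 and 1.79 FPKM, below every NS library (-3.77 ± 0.65, adjusted p = 0.000936); it was 22.8-fold lower than NS replicates 3 and 4 and 4.21-fold lower than replicates 1 and 2. Dusp1, in contrast to its rise with LPS, fell to 3.14, 3.76, 5.67 and 7.95 FPKM. Each IL4CD40 library was below each NS library, at a log2 difference of -1.66 ± 0.27 (adjusted p = 0.000654) and of -2.21 without IL4CD40 replicates 3 and 4. Dusp10 rose to 10.6, 9.77, 9.47 and 8.88 FPKM, above every NS library (0.87 ± 0.19, adjusted p = 0.00299; 0.58 and 1.23 against the respective NS pairs, replicates 3 and 4 first). Spry2 fell to 0.426, 0.639, 0.520 and 0.549 FPKM from 2.26, 2.40, 1.39 and 1.18 (-1.73 ± 0.28, adjusted p = 0.000575; -1.24 against NS replicates 3 and 4 and -2.12 against replicates 1 and 2).

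Dusp2 was called higher with IL4CD40 by a small margin, 0.20 ± 0.07 (adjusted p = 0.0362). That call was lost without any 1 of the IL4CD40 libraries (adjusted p from 0.0571 to 0.0875), without NS replicate 3 (0.137 as adjusted p) and without NS replicate 4 (0.0759), and with total counts as the scaling (0.647). Dusp16 did not pass the test (-0.05 ± 0.09, 95% interval -0.22 to 0.12), and Dusp4 (0.60 ± 0.47), Dusp5 (1.39 ± 0.72), Spry1 (-0.52 ± 0.37) and Spred1 (0.07 ± 0.27) did not either. The 95% intervals of the first experiment, here and below, rest on the SE and a normal distribution. They are therefore narrower than the quasi-likelihood test implies. For Dusp5 the groups did not overlap, and it was 14.6-fold higher than NS replicates 3 and 4 and 1.41-fold higher than replicates 1 and 2, called in each case. Dusp4 and Spred1 turned with the pair: they were called higher against NS replicates 3 and 4 (1.99 and 0.72), while against replicates 1 and 2 Dusp4 was at -0.12 (adjusted p = 0.105) and Spred1 was called lower (-0.40, adjusted p = 0.0124). Counted over the members, 5 were called higher against replicates 3 and 4 alone, where Dusp1, Dusp6 and Spry2 were called lower. Against replicates 1 and 2 alone, 5 were called lower, and Dusp5 and Dusp10 were called higher. The share of all genes called in these fits was not worked out, so the counts describe the members only.

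**Figure D3:**
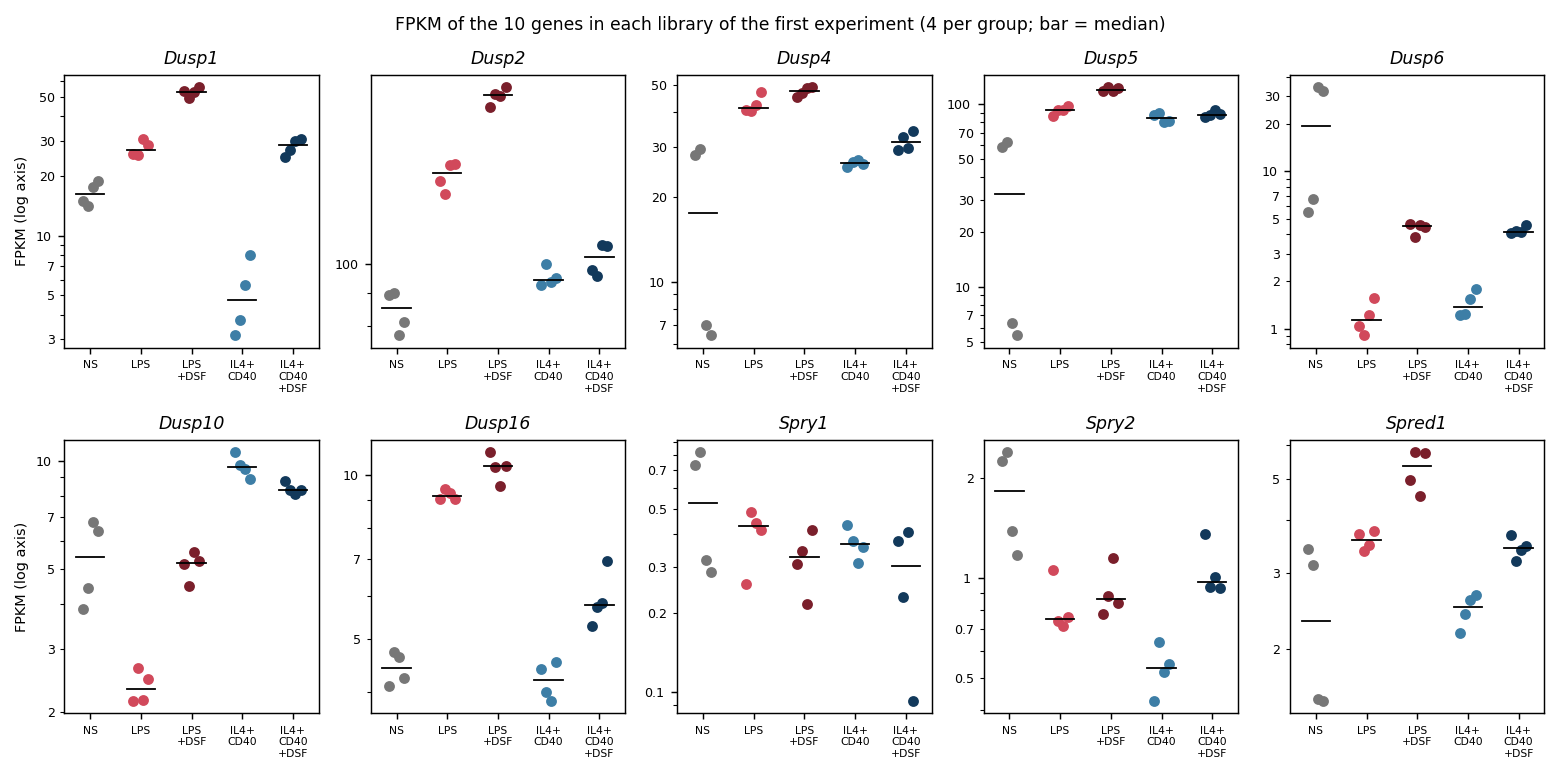
Each point is the FPKM of 1 library on a log axis, by group, with a bar at the median of the 4 libraries; a panel for each of the 10 genes. Dusp6 is lower in LPS and IL4CD40 (0.905 to 1.79) than with DSF (3.85 to 4.60), Dusp1 is lowest in IL4CD40 (3.14 to 7.95), and NS is split for Dusp4, Dusp5, Dusp6 and Spred1.

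Set against each other, the stimuli differed in 8 of the 10 genes: 7 were higher with LPS and 1 was higher with IL4CD40, where 22.3% of all genes were higher with LPS and 17.3% lower. The members' median log2 difference was 0.58, that of all genes -0.01. This comparison does not involve the NS libraries. Dusp1 differed the most, 5.58-fold higher with LPS (log2 difference 2.48 ± 0.23, adjusted p = 3.7e-06; 8.36-fold without IL4CD40 replicates 3 and 4). Dusp16 was 2.26-fold higher with LPS (1.18 ± 0.06, adjusted p = 3.79e-08) and Dusp10, its counterpart for the same kinases, was lower by a log2 difference of -1.99 ± 0.09 (adjusted p = 1.19e-08). The LPS and IL4CD40 libraries did not overlap for these 3 genes. Dusp4 (0.74 ± 0.06), Spred1 (0.59 ± 0.08) and Dusp2 (0.57 ± 0.05) were higher with LPS with no overlap, each with an adjusted p of at most 0.000126. Dusp5 was higher by 0.18 ± 0.05 (adjusted p = 0.0196), with overlapping libraries, and lost the call without LPS replicate 4 (0.0681) or IL4CD40 replicate 3 (0.0607). Its call was also lost under total counts (0.479) and in each limma fit on log2 FPKM (0.118). Spry2, higher by 0.67 ± 0.22 (adjusted p = 0.0317), lost it without LPS replicate 1 (0.107), LPS replicate 4 (0.0504), IL4CD40 replicate 1 (0.0859) or IL4CD40 replicate 3 (0.0637), without IL4CD40 replicates 3 and 4 (0.0696), under total counts (0.0632) and by DESeq2 (0.0808). In a fit of all 20 libraries the call on Dusp4 was lost (0.0931), as was that on Dusp5 (0.821). Dusp6, at -0.24 ± 0.20 (95% interval -0.63 to 0.14), and Spry1, at 0.17 ± 0.25, did not pass the test.

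With DSF beside LPS, transcript levels were higher than with LPS alone in 8 of the 10 genes and lower in none. Of all genes, 35.1% were higher and 36% lower. The members' median log2 difference was 0.42, against 0.00188 over all genes. Dusp6 rose the furthest of the 10, from 1.04, 0.905, 1.22 and 1.57 FPKM in LPS to 4.60, 3.85, 4.57 and 4.41 in LPS_DSF. The lowest library with DSF was above the highest without it, and the log2 difference was 1.91 ± 0.14 (3.77-fold, adjusted p = 3.32e-12). Its level with DSF was still under that of the NS libraries as a group (log2 difference to NS -2.18 ± 0.60, adjusted p = 0.00907), and it was 7.72-fold under NS replicates 3 and 4 and 1.42-fold under replicates 1 and 2.

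Dusp10 rose from 2.15, 2.65, 2.15 and 2.47 FPKM to 5.15, 4.49, 5.58 and 5.27 with DSF, with no overlap (1.13 ± 0.10, 2.19-fold, adjusted p = 3.99e-10). It thus stood within the range of the NS libraries, 3.88 to 6.75 FPKM, and its difference to NS did not pass the test (-0.06 ± 0.19, adjusted p = 0.781), though it was called lower against NS replicates 3 and 4 (-0.37, adjusted p = 0.00209) and higher against replicates 1 and 2 (0.28, adjusted p = 0.027). Dusp1, higher in LPS than in NS, was higher still in LPS_DSF, at 53.4, 49.3, 53.1 and 56.3 FPKM (0.96 ± 0.05, 1.95-fold, adjusted p = 4.72e-14). All LPS_DSF libraries were above all libraries of the other 4 groups for Dusp1, as they were for Dusp2 and Dusp5.

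Smaller rises with DSF were found in Spred1, which binds Ras regulators (0.57 ± 0.07, adjusted p = 1.84e-07), in Dusp2 (0.43 ± 0.04, adjusted p = 1.49e-09) and in Dusp5 (0.40 ± 0.04, adjusted p = 5.33e-09), and none of these overlapped LPS. Dusp16 was at 11, 10.4, 9.54 and 10.4 FPKM with DSF (0.19 ± 0.05, adjusted p = 0.00118) and Dusp4 at 45.1, 46.6, 48.7 and 49.1 (0.18 ± 0.05, adjusted p = 0.00227). These were the smallest rises of the 8, and Dusp4 overlapped LPS; under scaling by total counts they were at -0.02 and -0.03. In a fit of all 20 libraries the calls on Dusp4 (adjusted p = 0.698), Dusp5 (0.521) and Dusp16 (0.0712) were lost. Spry1 (-0.29 ± 0.30, adjusted p = 0.399) and Spry2 (0.17 ± 0.23, adjusted p = 0.534) did not pass the test, and their 95% intervals, -0.87 to 0.30 and -0.29 to 0.62, were wide; Spry2 was at -0.04 under total counts. Leaving out any 1 library changed none of these 10 calls. All 8 B cell marker genes also fell with DSF under LPS, from a summed 1800 to 1830 FPKM to 1290 to 1360. Myeloid genes went from a summed 226 to 245 FPKM to 181 to 187, neutrophil genes from 19.4 to 21.6 to 22.9 to 25.1 and plasma cell genes from 399 to 404 to 477 to 511, and the mitochondrial share of counts from 1.69% to 1.79% to 1.81% to 1.97%. These lists did not move as one: 2 myeloid genes were called higher and 3 lower, and 2 neutrophil genes higher and 1 lower. Of the plasma cell genes 4 were called higher and 1 lower. Mpeg1 (mean 131 to 83.4 FPKM) weighed most on the myeloid sum and Irf4 (319 to 371) on the plasma cell sum. The part of these lists and of the mitochondrial share in the results was not tested.

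With DSF beside IL4CD40, 6 of the 10 genes were higher and 1 was lower than with IL4CD40 alone. Of all genes, 30.1% were higher and 31.6% lower. The members' median log2 difference was 0.35, against -0.02 over all genes. Dusp1 rose the furthest, from 3.14, 3.76, 5.67 and 7.95 FPKM to 24.9, 27.2, 29.9 and 30.9. The groups were well separated, with a log2 difference of 2.44 ± 0.23 (5.44-fold, adjusted p = 5.55e-06), and the rise was 8.13-fold without IL4CD40 replicates 3 and 4. With DSF, Dusp1 thus stood above NS (log2 difference 0.80 ± 0.12, adjusted p = 0.000285), where without DSF it stood below. Dusp6 rose from 1.21, 1.23, 1.53 and 1.79 FPKM to 4.03, 4.201, 4.09 and 4.54, with no overlap (1.53 ± 0.14, 2.88-fold, adjusted p = 3.97e-06).

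Spry2 rose from 0.426, 0.639, 0.520 and 0.549 FPKM to 1.36, 0.936, 1.00 and 0.929 (0.96 ± 0.21, adjusted p = 0.00199). Dusp16 (0.48 ± 0.09, adjusted p = 0.000844), Spred1 (0.46 ± 0.09, adjusted p = 0.000741) and Dusp4 (0.24 ± 0.06, adjusted p = 0.00439) rose less, each without overlap, and the Dusp4 call was lost under scaling by total counts (0.09, adjusted p = 0.22). Dusp10, the gene that IL4CD40 raised, fell slightly with DSF, from 10.6, 9.77, 9.47 and 8.88 FPKM to 8.76, 8.30, 8.09 and 8.27. The groups did not overlap, though narrowly (-0.23 ± 0.07, adjusted p = 0.0139). Dusp2 (0.07 ± 0.05, 95% interval -0.03 to 0.18), Dusp5 (0.04 ± 0.05, -0.06 to 0.14) and Spry1 (-0.44 ± 0.37, -1.16 to 0.28) did not pass the test; Dusp2 and Dusp5 were at -0.08 and -0.11 under scaling by total counts. No call of the 10 changed on leaving out any 1 library or IL4CD40 replicates 3 and 4, but in a fit of all 20 libraries those on Dusp4 (adjusted p = 0.46) and Dusp10 (0.296) were lost. Of the 8 B cell marker genes, 6 fell and 1 rose with DSF under IL4CD40, from a summed 2270 to 2900 FPKM to 1630 to 1700. The sums of other lists moved without overlap as well: myeloid genes from a summed 131 to 146 FPKM to 164 to 200, neutrophil genes from 17.1 to 22.1 to 23.3 to 28, erythroid genes from 1.48 to 1.89 to 2.72 to 3.85 and plasma cell genes from 335 to 342 to 374 to 385. Of the genes tested, 4 of 7 myeloid, 1 of 6 neutrophil, 1 of 2 erythroid and 2 of 5 plasma cell genes were called higher and none lower. The mitochondrial share of counts went from 1.52% to 1.76% to 1.91% to 2.08%, and the part of these in the results was not tested.

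**Figure D4:**
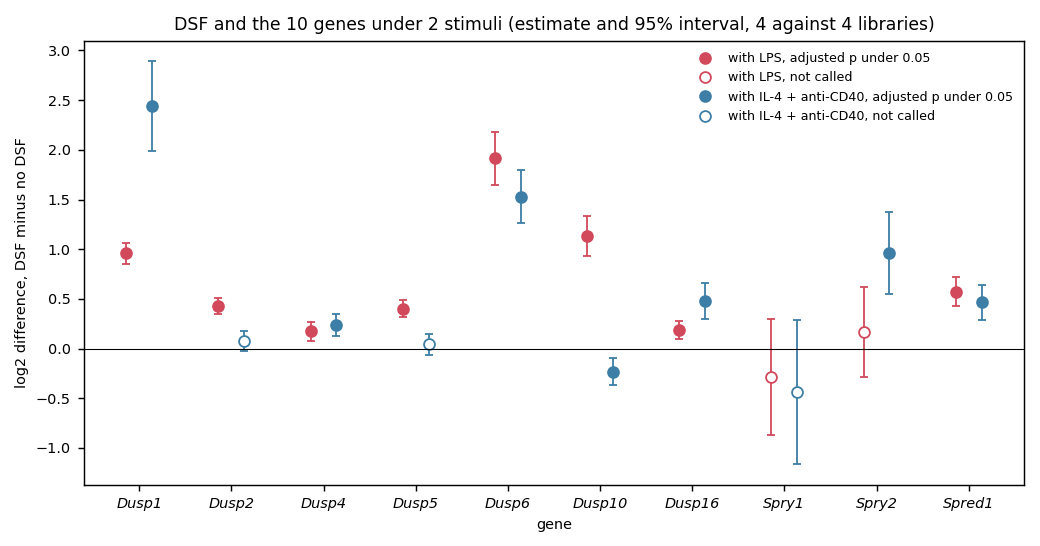
Log2 difference between libraries with and without DSF for each gene under LPS and under IL4CD40, with 95% intervals from the SE, which are narrower than the test implies. Filled points passed the test. Dusp1 lies higher under IL4CD40 (2.44) than under LPS (0.96), Dusp10 is positive under LPS (1.13) and negative under IL4CD40 (-0.23), and Dusp6 is raised under each.

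The difference between the DSF effects under the 2 stimuli was tested itself, as an interaction over the 16 stimulated libraries of the first experiment. It was called for 4 of the 10 genes, 3 with a more positive effect under LPS and 1 with a more positive effect under IL4CD40, where 7.92% and 6.96% of all genes were called. For Dusp10 the effect under LPS was higher by 1.36 ± 0.12 on the log2 scale (adjusted p = 1.82e-07) and for Dusp1 it was lower, at -1.49 ± 0.23 (adjusted p = 0.000159; -2.06 without IL4CD40 replicates 3 and 4). Dusp2 (0.35 ± 0.07, adjusted p = 0.00193) and Dusp5 (0.36 ± 0.07, adjusted p = 0.00201) had the more positive DSF effect under LPS, calls that a fit of all 20 libraries did not give (0.0597 and 0.862). For Dusp16 the test was just missed (-0.30 ± 0.10, adjusted p = 0.0546), and it passed with DESeq2 (0.0212), with total counts (0.0238), with DESeq2's size factors (0.0403), with no count filter (0.0337), without LPS_DSF replicate 1 (0.0478), IL4CD40 replicate 1 (0.0473), IL4CD40 replicate 4 (0.0249) or IL4CD40_DSF replicate 1 (0.0281), and without IL4CD40 replicates 3 and 4 (0.047). Dusp4 (-0.07, 95% interval -0.23 to 0.09), Dusp6 (0.38, -0.02 to 0.77), Spry1 (0.15, -0.79 to 1.08), Spry2 (-0.80, -1.38 to -0.22, adjusted p = 0.0749) and Spred1 (0.10, -0.13 to 0.33) were not called, so for Dusp6, which rose under each stimulus, no difference in size was shown.

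Relative to NS, the combination of stimulus and DSF left 6 members higher and 2 lower with LPS_DSF (background 34.3% and 37.3%) and 4 higher and 2 lower with IL4CD40_DSF (33.4% and 35.3%). The fits share the NS libraries and those of the treated groups with the comparisons above. Dusp6 and Spry2 were the 2 lower genes in each. The second experiment, given below, did not repeat this for Dusp6. For Spry2 the fall with IL4CD40_DSF (-0.76 ± 0.27, adjusted p = 0.0294) was lost without NS replicate 1 (0.0685), NS replicate 2 (0.0715) or IL4CD40_DSF replicate 2 (0.0778), 3 (0.0722) or 4 (0.0797), and without NS replicates 1 and 2 (-0.28, adjusted p = 0.271), and its fall with LPS_DSF (-0.98 ± 0.27, adjusted p = 0.00936) was lost without NS replicates 1 and 2 (-0.51, adjusted p = 0.074). The call on Dusp5 with LPS_DSF (1.88 ± 0.74, adjusted p = 0.0444) was lost without NS replicate 3 (0.06), NS replicate 4 (0.0549) or any 1 of the LPS_DSF libraries (0.0747 to 0.0787). The other genes higher than NS were Dusp1, Dusp2, Dusp4, Dusp16 and Spred1 with LPS_DSF, and Dusp1, Dusp2, Dusp10 and Dusp16 with IL4CD40_DSF. Dusp10 was above NS with IL4CD40_DSF (0.65 ± 0.18, adjusted p = 0.00945), while with LPS_DSF its difference did not pass the test. Scaling by total counts took the calls from Dusp4 (0.0917) and Dusp5 (0.104) with LPS_DSF and from Dusp2 (0.75), Dusp10 (0.0904) and Dusp16 (0.241) with IL4CD40_DSF, and it called Dusp10 (-0.46, adjusted p = 0.0388) and Spry1 (-1.15, adjusted p = 0.0295) lower with LPS_DSF and Spry1 lower with IL4CD40_DSF (-1.27, adjusted p = 0.0499).

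The order of the group medians differed from gene to gene. For Dusp1 it ran LPS_DSF (53.3 FPKM), IL4CD40_DSF (28.6), LPS (27.2), NS (16.3) and IL4CD40 (4.71), and only IL4CD40_DSF and LPS overlapped as neighbours. For Dusp2 it ran LPS_DSF (183), LPS (139), IL4CD40_DSF (102), IL4CD40 (94.4) and NS (85.4), with overlap only between IL4CD40_DSF and IL4CD40. For Dusp6 it ran NS (19.5), LPS_DSF (4.49), IL4CD40_DSF (4.14), IL4CD40 (1.38) and LPS (1.13): the DSF groups overlapped each other, and so did the groups with a stimulus alone, but the DSF groups did not overlap those without DSF. For Dusp10 it ran IL4CD40 (9.62), IL4CD40_DSF (8.29), NS (5.41), LPS_DSF (5.21) and LPS (2.31), with overlap only between NS and LPS_DSF. For Dusp16 it ran LPS_DSF (10.4), LPS (9.15), IL4CD40_DSF (5.77), NS (4.44) and IL4CD40 (4.21), with overlap only between NS and IL4CD40.

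Dusp4 and Dusp5 kept the order LPS_DSF, LPS, IL4CD40_DSF, IL4CD40, NS, with medians of 47.6, 41.4, 31.2, 26.4 and 17.5 FPKM for Dusp4 and 120.5, 93.1, 87.7, 84.0 and 32.3 FPKM for Dusp5. Neighbours overlapped between LPS_DSF and LPS and between IL4CD40 and NS for Dusp4, and between LPS, IL4CD40_DSF and IL4CD40 for Dusp5. Spred1 had the same order, from 5.35 FPKM in LPS_DSF to 2.33 in NS, with overlap between LPS and IL4CD40_DSF and between IL4CD40 and NS. Spry2 was highest in NS (1.83 FPKM) and lowest in IL4CD40 (0.534), and of its neighbouring groups only LPS (0.751) and IL4CD40 did not overlap. All neighbouring groups overlapped for Spry1, between 0.527 and 0.303 FPKM.

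Over the 20 libraries, the pattern of each gene was compared with that of the other genes among 15575 by Pearson correlation of log2 CPM. These correlations describe libraries that share groups and an unstimulated group in 2 parts, and they carry no test. The genes most like Dusp1 were Gm8369 (r = 0.988) and Casp1 (0.978), those most like Dusp2 were Arf4 (0.979) and Khnyn (0.978), and those most like Dusp16 were Ifi207 and Zc3hav1 (0.980 each). Nr4a3, an immediate early nuclear receptor gene, was among the 2 most like both Dusp4 (0.977, after Zfpm1 at 0.982) and Dusp5 (0.985). Dusp6 was most like Sord (0.987) and Gm15411 (0.971), Dusp10 like S1pr3 and Lifr (0.956 each), Spred1 like Ugcg (0.976) and Cmip (0.974), Spry2 like Nsf (0.926) and Rnpepl1 (0.924), and Spry1 like Camp (0.773) and Emp3 (0.728). Among the members themselves, Dusp4 and Dusp5 were closest (r = 0.954), then Dusp2 and Dusp16 (0.928), and Dusp5 and Dusp6 were the most opposed (-0.753).

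The second experiment gave 1 library per condition, so its values have no replicate check and carry no test. Intervals on its ratios cover counting error only, and PCR duplicates make them too narrow. Dusp1 was at 878 counts (17.6 FPKM) with LPS and 5091 (109 FPKM) with LPS_DSF, a log2 ratio of 2.64 (95% counting interval 2.54 to 2.75), and at 674 (13.6 FPKM) with IL4CD40 and 3182 (82.5 FPKM) with IL4CD40_DSF, a log2 ratio of 2.61 (2.50 to 2.74). In the first experiment the DSF effects on Dusp1 were 0.96 under LPS and 2.44 under IL4CD40. The difference between the stimuli was thus not seen again in these libraries. Without DSF, the first experiment had means of 27.65 FPKM with LPS, more than here, and 5.13 with IL4CD40, less than here. Dusp6 was at 4.23 FPKM with LPS, 14.9 with LPS_DSF (log2 ratio 1.81, 1.61 to 2.03), 3.86 with IL4CD40 and 14.5 with IL4CD40_DSF (1.92, 1.70 to 2.15). Each DSF library was above the 10.04 FPKM of the unstimulated library, unlike in the first experiment, where Dusp6 with DSF was under NS. Dusp10 again rose with DSF under LPS, from 2.13 to 6.63 FPKM (1.63, 1.34 to 1.95), and not under IL4CD40, from 7.54 to 7.10 FPKM (-0.07, -0.29 to 0.14). The unstimulated library held 2.81 FPKM of Dusp10, so here the LPS_DSF library was above it.

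Dusp16 was higher with DSF under each stimulus (log2 ratios 1.05 and 1.45, counting intervals 0.937 to 1.155 and 1.31 to 1.59). So was Spry2 (1.62 and 2.08), on 10 to 58 counts per library. In FPKM, Spry2 was at 1.61 with LPS_DSF and 1.24 with IL4CD40_DSF, against 1.25 in the unstimulated library. Dusp4 went the other way from the first experiment, lower with DSF by log2 ratios of -0.55 under LPS and -0.38 under IL4CD40, and Dusp5 was at 0.28 (-0.02 under scaling by total counts) and -0.35. Spred1 (0.45 and 0.42) and Dusp2 (0.68 and 0.39) were higher. Counted at 2-fold or more, 6 members were higher and none lower with DSF under LPS (20.3% and 19.5% of all genes), and 4 were higher and none lower under IL4CD40 (21.9% and 20.3%). The 6 were Dusp1, Dusp6, Dusp10, Dusp16, Spry1 and Spry2, of which Spry1 rested on 19 against 7 counts, and the 4 were Dusp1, Dusp6, Dusp16 and Spry2. Marker genes of other cell types also moved with DSF in these libraries: 3 of 5 erythroid genes were 2-fold higher under each stimulus (median log2 ratios 1.13 and 1.19), the 2 neutrophil genes counted had medians of 2.21 and 3.41 and plasma cell genes of 0.91 and 0.80. B cell genes had medians of -0.39 and -0.44, T cell genes of -0.02 and 1.12 and myeloid genes of 0.68 and 0.40, and their part in the results was not tested.

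With ibrutinib, no member reached 2-fold in either direction under LPS (2.81% and 2.47% of all genes did) or under IL4CD40 (2.23% and 1.69%). Dusp1 was at 20.9 FPKM with LPS and ibrutinib (log2 ratio 0.27, 0.14 to 0.39) and 17.0 with IL4CD40 and ibrutinib (0.33, 0.20 to 0.47), and Dusp6 at 6.06 (0.53, 0.31 to 0.77) and 4.58 (0.25, 0.01 to 0.50). For Dusp1 and Dusp6 the counting intervals of DSF and ibrutinib did not overlap under either stimulus. Dusp2 (-0.17 and -0.39), Dusp4 (-0.18 and -0.43) and Dusp5 (-0.02 and -0.26) were slightly lower with ibrutinib, and the most distant value of the 10, 0.92 for Spry2 under IL4CD40, rested on 29 against 10 counts. DSF and ibrutinib were both used at 1 µM, and with 1 library each the difference between the drugs was not tested.

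The stimuli in the second experiment were followed by 3 members 2-fold lower and none higher with LPS (8.62% of all genes higher and 9.88% lower), and by 2 lower and 1 higher with IL4CD40 (10.7% and 13.7%). Dusp6 and Spry2 were lower with each, by log2 ratios of -1.24 and -1.38 for Dusp6 and -1.26 and -2.09 for Spry2, Spry1 was lower with LPS on 7 against 24 counts, and Dusp10 was higher with IL4CD40 (1.40). Dusp1 was at a log2 ratio of 0.24 with LPS and -0.15 with IL4CD40. The latter is far from the -1.66 of the first experiment, where the 4 IL4CD40 libraries held 3.14 to 7.95 FPKM, against 13.6 here.

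**Figure D5:**
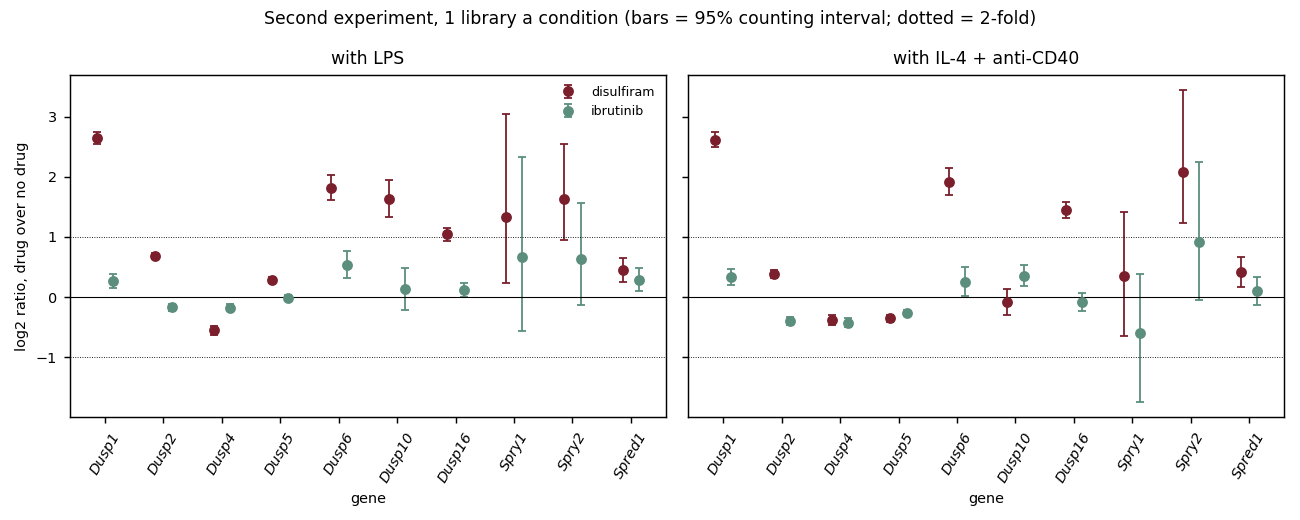
Log2 ratio of the library with the drug over the library without it, for DSF and ibrutinib, under LPS (left) and IL4CD40 (right), in the second experiment with 1 library per condition; bars are 95% counting intervals and dotted lines mark 2-fold. With DSF, Dusp1, Dusp6, Dusp16 and Spry2 lie above 2-fold under each stimulus (Dusp1 at 2.64 and 2.61), and with ibrutinib all points lie within 2-fold. Under LPS the intervals of Dusp16 and Spry2 with DSF reach below 2-fold.

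The wider pathway was described with 4 further lists, whose counts stand beside the 35.1% of all genes that rose and 36% that fell with DSF under LPS, and the 30.1% and 31.6% under IL4CD40. Of 15 other dual-specificity phosphatases, 11 could be tested with DSF under LPS: 5 rose and 4 fell, at a median log2 difference of 0.23. The increases were led by Dusp18 (4.35, adjusted p = 2.07e-09) and Dusp3 (1.69), the phosphatase also called VHR, and the decreases by Dusp19 (-1.22) and Dusp7 (-1.21), an ERK phosphatase of the same subfamily as Dusp6. Under IL4CD40 4 of 12 rose and 4 fell, with the same genes leading each direction: Dusp18 (2.50), Dusp3 (1.42), Dusp19 (-1.496) and Dusp7 (-0.94). Dusp18 had too few counts to be tested in any comparison of groups without DSF. It passed the count filter through the DSF groups, where it is high, so its rises, counted among the 5 and the 4, are no separate result. Dusp7, which is close to Dusp6 in sequence and function, thus fell under each stimulus where Dusp6 rose.

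Of 11 other Sprouty, Spred and Ras GTPase activating protein genes, 8 of 10 tested rose and none fell with DSF under LPS (median 0.42), and 7 of 9 rose and 1 fell under IL4CD40 (median 0.43). The leading genes were Spry4 (3.23) and Spred3 (2.78) under LPS and Spred2 (1.78) and Spred3 (1.70) under IL4CD40, where Rasa2, a Ras GTPase activating protein, fell (-0.25). Spry4, too, had too few counts to be tested in any comparison of groups without DSF. It passed the count filter through a DSF group, where it is high, so its rise, counted among the 8, is no separate result. Of 14 transcripts known to follow ERK activity, 13 could be tested, and 10 rose and 2 fell under LPS (median 0.62) while 8 rose and 3 fell under IL4CD40 (median 0.40). Fosl1 (3.03) and Fosb (2.55), both AP-1 subunits, led the rise under LPS and Phlda1 (2.35) and Fosl1 (1.94) under IL4CD40, while Myc fell in each (-0.44 and -0.63), with Ccnd1 (-0.84) under LPS and Egr2 (-1.13) under IL4CD40. The 39 genes of the cascade itself moved both ways: 15 rose and 16 fell of 37 tested under LPS (median 0.02), and 15 rose and 13 fell of 38 under IL4CD40 (median -0.04). Map2k3, a kinase that activates p38 (1.70 and 1.39), and Map3k8, the TPL2 kinase (1.48 and 1.37), led the rises, and Rasgrp3 (-1.60) and Araf (-0.77 under LPS and -0.80 under IL4CD40, there followed by Grb2 at -0.57) led the falls.

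With the stimuli alone, the same lists moved in both directions, where 29.6% of all genes rose and 33.3% fell with LPS and 30.4% and 32.1% with IL4CD40. Relative to NS, 3 of 11 other phosphatases rose and 5 fell with LPS, led by Dusp14 (2.37) and Dusp12 (0.93) and by Dusp19 (-1.79) and Dusp23 (-1.499), and 2 rose and 4 fell with IL4CD40, led by Styx (0.99), Dusp12 (0.41), Dusp23 (-1.71) and Dusp19 (-1.65). Of 13 ERK-responsive transcripts 5 rose and 5 fell with LPS, led by Myc (3.65), Fosl1 (2.02), Fos (-2.97) and Fosb (-2.46), and 4 rose and 6 fell with IL4CD40, led by Ier3 (2.54), Myc (2.41), Fos (-3.58) and Etv5 (-2.32). Of 38 cascade genes 13 rose and 16 fell with LPS, led by Map3k8 (1.82) and Mapkapk3 (1.06) and by Map2k6 (-4.53) and Mapk14, the p38α gene (-2.19), and 14 rose and 16 fell with IL4CD40, led by Mapkapk3 (1.49), Map3k8 (1.38), Rasgrp2 (-2.60) and Map2k6 (-2.54). Of 9 Sprouty, Spred and Ras GTPase activating genes, 2 rose and 3 fell with LPS, led by Nf1 (0.74), Rasa2 (0.41), Dab2ip (-1.62) and Rasal3 (-1.51), and 2 rose and 4 fell with IL4CD40, led by Rasa2 (1.06), Nf1 (0.27), Dab2ip (-1.52) and Rasa3 (-1.23). All these values against NS pool its 2 pairs of libraries. In the interaction, in which 7.92% and 6.96% of all genes were called, 5 of 13 ERK-responsive transcripts had a more positive DSF effect under LPS and none under IL4CD40, led by Fosl1 (1.09) and Egr2 (1.06), and 8 and 3 of 38 cascade genes were called in the respective directions, among them Map2k6 (1.36), Rasgrp3 (-1.28) and Map3k5 (-0.46). Of 12 other phosphatases 2 were called, Dusp22 (0.57) and Styx (0.44), and of 10 Sprouty, Spred and Ras GTPase activating genes also 2, Rasa2 (0.69) and Rasa3 (-0.47).

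Scaling matters for small differences. Scaling by total counts in place of TMM (trimmed mean of M-values) moved the median log2 difference of all genes to -0.27 for LPS and -0.19 for IL4CD40 against NS, to -0.21 and -0.16 for DSF under LPS and IL4CD40, to -0.14 for LPS against IL4CD40, and to -0.43 and -0.31 for LPS_DSF and IL4CD40_DSF against NS. The split of all genes called higher and lower then went from 4283 and 4818 to 2903 and 6387 for LPS against NS, from 4389 and 4633 to 3454 and 5574 for IL4CD40 against NS, from 4966 and 5096 to 3473 and 6680 for DSF under LPS, and from 4301 and 4514 to 3262 and 5832 for DSF under IL4CD40. It went from 3145 and 2439 to 2428 and 4712 for LPS against IL4CD40, from 5031 and 5464 to 3151 and 7453 for LPS_DSF against NS, from 4901 and 5178 to 3117 and 6760 for IL4CD40_DSF against NS, and from 1199 and 1053 to 826 and 1423 for the interaction. Dusp1 and Dusp6 kept their DSF rises under each of these scalings, at 0.75 and 2.29 for Dusp1 and 1.70 and 1.38 for Dusp6.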

How the data were processed

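RNA of 27 samples was sequenced, 20 in the first experiment and 7 in the second. According to the submitters' processing notes, reads were aligned to mm10 with HISAT2 2.0.5 and counted per gene with featureCounts 1.5.0-p3. The authors deposited raw counts per gene and FPKM values (fragments scaled by transcript length and library size), and both were used as deposited. The strand setting is not given in the sources used here.

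Counts were tested with edgeR 4.0.16 (R 4.3.3) by the quasi-likelihood test, after filterByExpr and TMM scaling, in fits of the 8 libraries of each comparison and of 16 for the interaction, with Benjamini-Hochberg adjustment over all genes and a threshold of 0.05. Alternatives were DESeq2 1.42.0, limma 3.58.1 on log2(FPKM + 0.1) or log2(FPKM + 1), other scalings, filters and fits, and libraries left out. The scripts were tested on simulated data. In the second experiment, log2 ratios used a prior count of 2 and genes with a mean count of at least 10. The members and lists were chosen with earlier results of these data known. All members are named, with the 2 genes called highest and lowest in each list, except for some items that are not reported here. To see whether replicate numbers pair samples, the deviations of log2 CPM from the group mean were correlated between samples with the same number. These correlations were -0.056 to 0.169 in 28 pairs, over 0.1 in 2 of them, so the numbers were not taken to pair samples.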

Additional observations from a re-analysis of the deposited data

Results flagged for a closer look

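The difference between the DSF effects under LPS and IL4CD40 passed the test for 4 genes: Dusp1 (-1.49 on the log2 scale, the effect under LPS being the lower), Dusp2 (0.352), Dusp5 (0.356) and Dusp10 (1.36). For Dusp10 the DSF effects had opposite signs, 1.13 under LPS and -0.23 under IL4CD40. The difference for Dusp1 was not seen in the second experiment, where its log2 ratios with DSF were 2.64 under LPS and 2.61 under IL4CD40, from 1 library per condition. Within LPS, Spry2 in replicate 1, at 1.06 FPKM, lay far from the other 3 libraries, at 0.716 to 0.761; chance alone flags about 1 in 20 groups in this way.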

How the results depend on the processing

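Of the single-gene values recomputed under other settings, 1634 counted as unchanged, 45 newly passed the threshold, 90 no longer did, 25 changed sign and 23 values without a test moved. Unchanged meant the same direction and the same side of the threshold. For the second experiment it meant a value within the counting interval of the main one, on whichever side of 2-fold. Requiring an absolute log2 difference of 1 left 2 members higher for LPS against NS, 0 higher for IL4CD40 against NS, 2 higher for DSF under LPS, 2 higher and 0 lower for DSF under IL4CD40, 2 higher for LPS against IL4CD40, 1 lower for LPS_DSF against NS, 0 higher and 1 lower for IL4CD40_DSF against NS, and 1 higher in the interaction. For IL4CD40 against NS, 1 member was higher under total counts, with no count filter, in either limma fit and without IL4CD40 replicates 3 and 4, 5 were higher without NS replicates 1 and 2, 5 were lower without NS replicates 3 and 4, and 1 to 2 were higher without any 1 library. In a fit of all 20 libraries, 5 were higher with DSF under LPS, 0 lower with DSF under IL4CD40, 7 higher for IL4CD40_DSF against NS and 1 higher in the interaction. Total counts gave 4 lower for LPS_DSF against NS and 1 higher for IL4CD40_DSF against NS; without NS replicates 1 and 2 the latter had 7 higher and 1 lower, and without any 1 library 1 to 2 lower. In the interaction 2 were lower with DESeq2, total counts, DESeq2's size factors, no count filter and without IL4CD40 replicates 3 and 4, and 1 to 2 without any 1 library. With a prior count of 0.5, 1 member was 2-fold higher with ibrutinib under IL4CD40 in the second experiment. Apart from the main setting, the share of all genes called was worked out only for total counts, as given above. The other counts here, and those for the replicate block below, describe the members alone.

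Signs changed under total counts for Spred1 in IL4CD40 against NS (-0.0939), for Dusp4 (-0.0327), Dusp16 (-0.022) and Spry2 (-0.0426) with DSF under LPS, for Dusp2 (-0.075) and Dusp5 (-0.107) with DSF under IL4CD40, and for Dusp2 in IL4CD40_DSF against NS (-0.0307). Without NS replicates 1 and 2, Spry1 was at 0.432 for LPS, 0.311 for IL4CD40 and 0.0877 for LPS_DSF against NS. Without NS replicates 3 and 4, Dusp4 (-0.123) and Spred1 (-0.404) turned for IL4CD40 against NS, and Dusp10 for LPS_DSF against NS (0.275). Without any 1 library, Spred1 for IL4CD40 against NS ranged from -0.118 to 0.28, turning negative without NS replicate 3 or NS replicate 4 (-0.0958), and Dusp10 for LPS_DSF against NS from -0.225 to 0.0487, turning positive without NS replicate 3, NS replicate 4 (0.0145) or LPS_DSF replicate 2 (0.00516). Without IL4CD40 replicates 3 and 4, Spred1 was at -0.0155 against NS, Dusp5 at -0.0194 with DSF, Dusp6 at 0.00495 for LPS against IL4CD40 and Spred1 at -0.00499 in the interaction. Spry1 in the interaction ranged from -0.151 to 0.403, turning negative without LPS replicate 1 (-0.0176), LPS_DSF replicate 4 (-0.00346) or IL4CD40_DSF replicate 4. The cause was not tested.

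The replicate block left 8 members higher and 0 lower with DSF under LPS and 6 higher and 1 lower under IL4CD40. With the block, Dusp5 passed for IL4CD40 (2.15, adjusted p = 0.049) and IL4CD40_DSF (2.21, adjusted p = 0.0484) against NS, and Dusp5 (0.0532) and Spry2 (0.0818) no longer did for LPS against IL4CD40. The depth limits Spry1, at 6 to 62 counts; with at least 10 counts required in every sample it gave no value in 3 comparisons.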
